A study of Mus musculus with 2 samples.

Results

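The genes of Wnt signalling at the cell surface were followed through the single-cell transcriptomes of the mouse anterior eye segment. The set holds the Wnt ligands (Wnt followed by a number), the Frizzled receptors, the R-spondins and their Lgr4, Lgr5 and Lgr6 receptors, the co-receptors Lrp5 and Lrp6, the secretion genes Porcn and Wls, the feedback genes Axin2, Notum, Znrf3 and Rnf43, and the transcription factor genes Lef1 and Tcf7. They were chosen by symbol alone, and 46 of the 32285 genes in the libraries met the rule. The study compared Control mice, whose labelled genotype is Foxc2 flox/flox with no Cre named, with NC-Foxc2-/- mice, which carry the same floxed alleles and Wnt1Cre+. Both were labelled as 4 weeks old and of mixed strain, and the iris was removed at dissection. Wnt1-Cre is active in the neural crest lineage, so Foxc2 was to be lost in the neural crest-derived cells of the eye and kept elsewhere. Each genotype was measured in 1 library made from the pooled eyes of several mice, so no test between genotypes was possible, and every difference below is one between these 2 libraries. The paper lists Xist, a transcript of female cells, as higher and the Y-linked Ddx3y as lower in TM-1 cells of NC-Foxc2-/-. The pools may thus differ in sex, and the part of sex in the differences below was not tested.

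Wnt proteins are lipid-modified by the acyltransferase Porcn and carried to the cell surface by Wls. They bind a Frizzled receptor together with Lrp5 or Lrp6, which stabilises beta-catenin, and beta-catenin then acts with TCF/LEF factors on target genes. Wnt5a and Wnt11 are best known for signalling without beta-catenin. R-spondins bind Lgr receptors and take away the ubiquitin ligases Znrf3 and Rnf43, which otherwise remove Frizzled from the membrane. Axin2, Notum, Znrf3 and Rnf43 are targets of the pathway that restrain it. In the eye, Frizzled-4 and Lrp5 are known for vessel growth, Wnt signalling for the upkeep of limbal epithelial stem cells, and Wnt antagonists of the trabecular meshwork, the filter through which aqueous humour leaves the eye, for the control of eye pressure.

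The measurement was droplet-based, and each count is a unique molecular identifier (UMI), which stands for 1 captured transcript 3' end. Kept cells numbered 10773 in the Control library and 10872 in the NC-Foxc2-/- library, with 119599692 and 94644512 UMIs and a median of 7663 and 6517 UMIs per cell, and 52 barcodes occurred in both libraries. Cells fell into 19 classes. For 7 of these the study's clusters were used (TM-1, TM-2 and TM-3 of the trabecular meshwork, uveal meshwork, fibroblasts, blood endothelial cells (ECs), and Schlemm's canal (SC) and lymphatic ECs), with blood ECs pooled here from 6 clusters and from 22 cells, all of the NC-Foxc2-/- library, that the study kept as a cluster of their own. The other 12 were rebuilt from the counts and are called "-like" after their markers. All 18 classes with at least 20 cells in each library were compared, which leaves out corneal endothelial-like cells (168 Control cells, 9 NC-Foxc2-/- cells). Of 18 marker lists, 15 had their highest summed level in their own class in both libraries, and the keratocyte, corneal epithelial and limbal epithelial lists did not. Cell numbers differed widely between the libraries, from 1646 and 2542 keratocyte-like cells to 447 and 25 conjunctival epithelial-like cells. Foxc2 itself was lower in NC-Foxc2-/- in the meshwork, with a ratio between 0.189 and 0.222 in the 3 TM clusters and in uveal meshwork, and of 0.0144 in fibroblasts and 0.0188 in pericyte-like cells. In keratocyte-like cells it went against the label, at 4.22 and 9.94 CPM (2.36 [1.91, 2.93]). In blood ECs, where the Cre is not meant to act, it was also lower, from 20 and 5 UMIs (0.224 [0.0657, 0.615]).

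Levels are given as UMIs of the gene per 1000000 UMIs of the class (CPM), and the ratio is NC-Foxc2-/- over Control with its 95% interval in brackets. The interval covers counting error only, since the spread between mice cannot be seen in pooled libraries. It takes each UMI as a separate draw, also where several come from 1 cell. A gene and class pair was called when its ratio was at least 2 or at most 0.5 and both libraries together held at least 50 UMIs, a criterion of size without any test. Of the 46 genes, 24 reached 20 CPM in some class in both libraries, and 39 had at least 50 UMIs in all cells. The other 7 were all but undetected: Wnt8a and Wnt8b had no UMI, Wnt7a had 1, Wnt9b and Wnt3 had 10 each over both libraries, Wnt1 had 38 and Rspo4 had 40. Of the 39, 25 had their highest class in common between the libraries. Some of these rest on little, as for Fzd9 and Fzd10, with under 20 UMIs in every class compared.

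**Figure D1:**
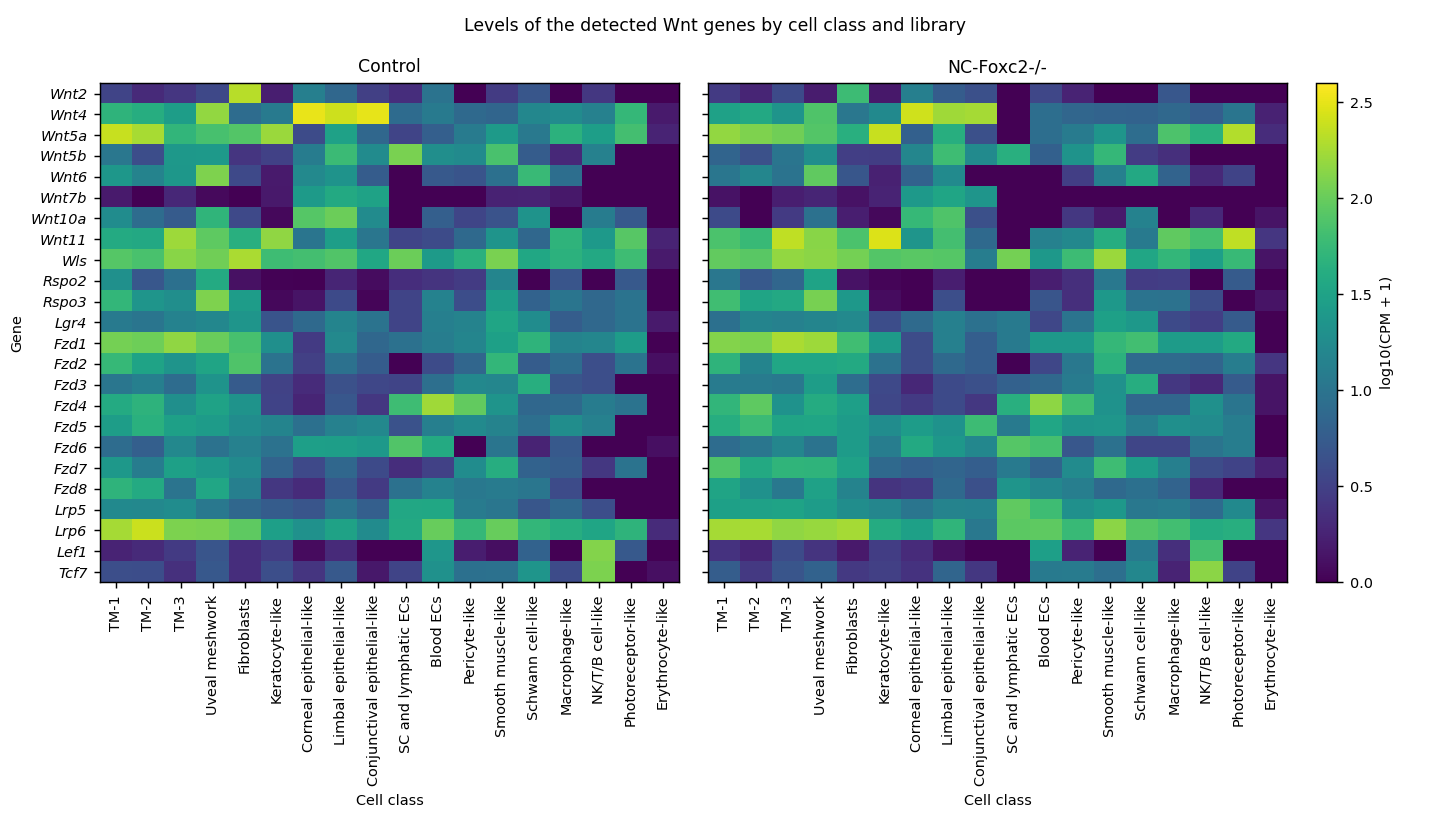
Level of the 24 genes that reached 20 CPM (rows) in the 18 cell classes compared (columns), in the Control library on the left and the NC-Foxc2-/- library on the right. Colour is log10 of CPM plus 1. Bright cells mark the main sources, such as Wnt2 in fibroblasts (206 CPM in Control against 59.0 CPM in NC-Foxc2-/-) and Wnt4 in the epithelia.

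Wnt2 was a fibroblast transcript at 206 CPM in Control against 59.0 CPM in NC-Foxc2-/-, where the next class, corneal epithelial-like cells, held 12.3 and 12.4 CPM. Wnt16, Wnt10b and Wnt2b were also highest in fibroblasts in both libraries, as was Wnt9a, at 18.1 CPM in Control against 23.1 CPM in NC-Foxc2-/-. The epithelia held Wnt4, Wnt7b and Wnt10a. Wnt4 stood at 325 CPM in Control against 258 CPM in NC-Foxc2-/- corneal epithelial-like cells, and in Control the conjunctival epithelial-like cells at 318 CPM did not differ from them beyond counting error (ratio of highest to next 1.02 [0.982, 1.06]). Wnt7b was almost confined to the 3 epithelial classes, with 37.1 and 32.7 CPM in limbal epithelial-like cells, 24.9 and 24 CPM in corneal epithelial-like cells, and under 1 CPM in every meshwork class. Wnt10a was highest in limbal epithelial-like cells at 102 and 75.6 CPM.

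Ligands of the meshwork divided by cluster. Wnt6 was highest in uveal meshwork, at 125 CPM in Control against 91.5 CPM in NC-Foxc2-/-, followed in both libraries by Schwann cell-like cells at 56.4 and 35.7 CPM. Wnt5a was highest in TM-1 of the Control library at 241 CPM and in keratocyte-like cells of the NC-Foxc2-/- library at 240.1 CPM. Wnt11 was highest in TM-3 of the Control library at 165 CPM and in keratocyte-like cells of the NC-Foxc2-/- library at 287 CPM. Wnt5b was highest in SC and lymphatic ECs of the Control library at 118 CPM. In the NC-Foxc2-/- library its highest class was limbal epithelial-like cells at 61.3 CPM, which smooth muscle-like cells at 53.5 CPM did not differ from beyond counting error (1.15 [0.897, 1.47]). The cargo receptor Wls was broad, with 186 CPM in Control against 113 CPM in NC-Foxc2-/- fibroblasts, 137 and 151 CPM in TM-3, and 117 and 159.9 CPM in smooth muscle-like cells. Porcn reached no more than 13.0 CPM in any Control class.

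R-spondins, which amplify Wnt signals, were made by the meshwork and by fibroblasts. Rspo3 was highest in uveal meshwork, at 125 CPM in Control against 116 CPM in NC-Foxc2-/-, with TM-1 next at 51.9 and 62.0 CPM. Rspo2 was highest there too, at 38.1 and 31.6 CPM. Rspo1 was highest in fibroblasts, at 63.5 CPM in Control against 9.39 CPM in NC-Foxc2-/-. Uveal meshwork was thus the class of highest level in both libraries for Wnt6, Rspo2 and Rspo3 alike. Of the R-spondin receptors, Lgr4 was spread over most classes and highest in smooth muscle-like cells at 33.1 and 28.8 CPM (1.24 [0.805, 1.94] over the next class in NC-Foxc2-/-), while Lgr5 and Lgr6 stayed under 10 CPM in every class compared.

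Fzd4, the receptor of Norrin, was highest in blood ECs at 169 CPM in Control against 144 CPM in NC-Foxc2-/-, with pericyte-like cells at 94.5 and 62.3 CPM. Fzd6 was highest in SC and lymphatic ECs at 77.2 and 80.7 CPM. Fzd9 (13.1 and 5.38 CPM) and Fzd10 (7.13 and 10.8 CPM) also had their highest level there. For both genes this rests on under 20 UMIs in a class of 84 and 23 cells. Fzd1 was highest in TM-3 at 145 and 186 CPM. Fzd8 was highest in TM-1 at 47.8 and 32.3 CPM, where Fzd2 stood at 54.3 and 48.4 CPM. Fzd3 was highest in Schwann cell-like cells at 42.1 and 40.7 CPM. The lead of Fzd8 in both libraries, and of Fzd6 in NC-Foxc2-/-, over the next class was within counting error (1.25 [0.874, 1.83] and 1.09 [0.815, 1.46] for Fzd8, 1.19 [0.645, 2.06] for Fzd6). Of the co-receptors, Lrp6 was highest in TM-2 at 245 and 181 CPM, which in NC-Foxc2-/- did not differ from TM-1 beyond counting error (1.02 [0.865, 1.2]). Lrp5 was highest in SC and lymphatic ECs at 35.6 and 91.5 CPM and did not differ beyond counting error from blood ECs at 34.1 and 61.1 CPM (1.04 [0.638, 1.69] and 1.5 [0.837, 2.53]). Lef1 and Tcf7, which mark T lymphocytes among blood cells, were highest in NK/T/B cell-like cells in both libraries. Lef1 was next highest in blood ECs at 22.5 and 28.6 CPM. No feedback gene reached 20 CPM in any class of both libraries.

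Over the 18 classes, 256 gene and class pairs of this set had 50 UMIs or more. Of these, 29 were at least 2-fold higher in NC-Foxc2-/- (3.19% of all gene and class pairs were) and 17 were at least 2-fold lower (4.06% of all pairs were). The calls fell unevenly over the roles. The Wnt ligands gave 8 higher and 12 lower pairs of 72, the Frizzled receptors 8 higher and 1 lower of 83, the co-receptors 6 higher and 0 lower of 27, and the feedback genes 5 higher and 0 lower of 17. The 6 co-receptor calls were all of Lrp5, and Lrp6 gave none of 15. Of the 5 feedback calls, 3 were of Axin2 and 2 of Znrf3, each out of 7 pairs. Notum gave none of 2 and Rnf43 none of 1. The pairs share 2 libraries and are not independent, and no test bears on these counts.

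**Figure D2:**
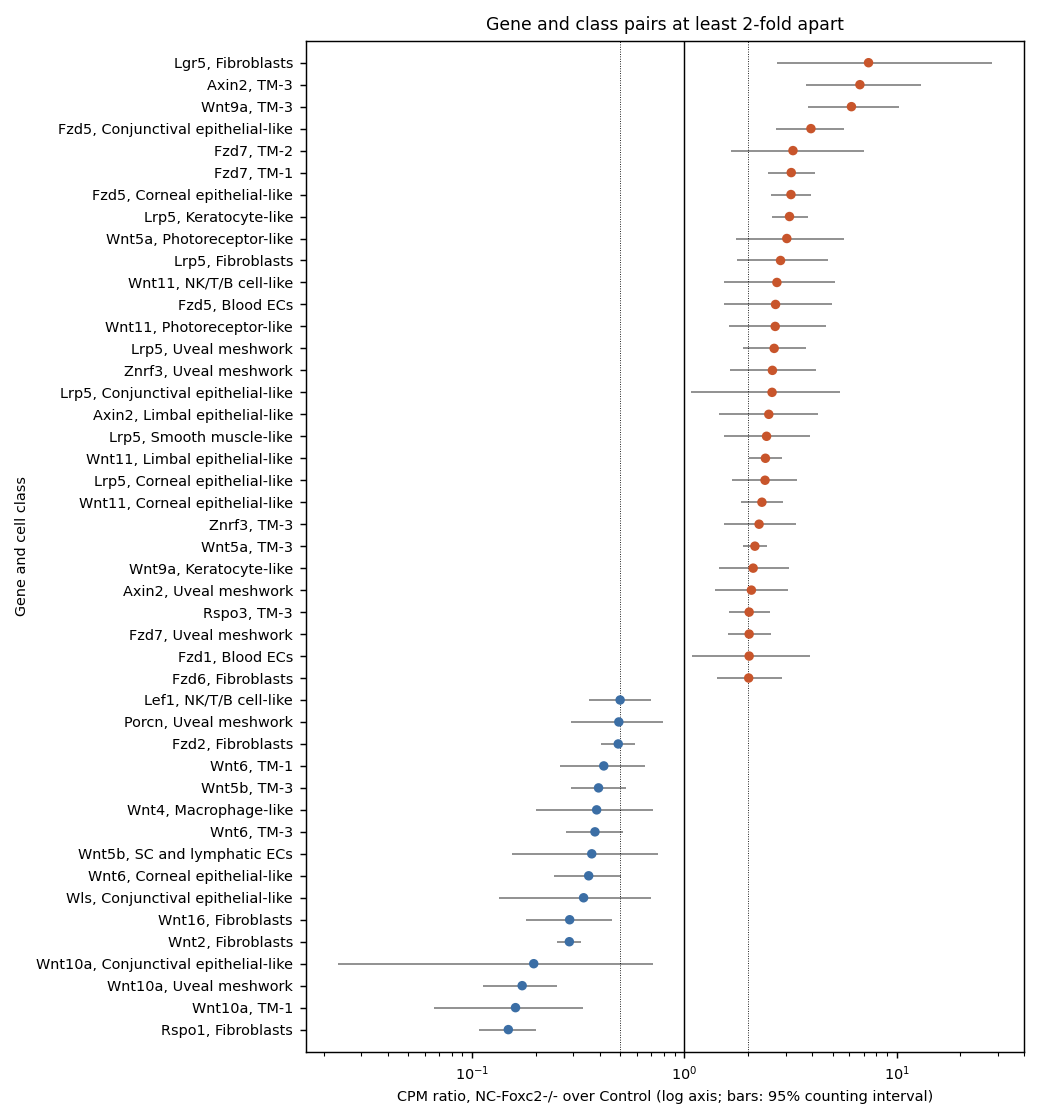
CPM ratio of NC-Foxc2-/- over Control (log axis) for the called gene and class pairs with UMIs in both libraries, with 95% counting intervals as bars and dotted lines at ratios of 0.5 and 2. Most pairs of receptors and those of the co-receptor Lrp5 and the feedback genes Axin2 and Znrf3 lie on the right. Most ligand pairs lie on the left. The ratios run from 0.148 for Rspo1 in fibroblasts to 7.38 for Lgr5 in fibroblasts.

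In TM-3, the cluster with the markers of the juxtacanalicular meshwork, 2 feedback genes (Axin2 and Znrf3), 2 ligands and 1 R-spondin were higher in NC-Foxc2-/-, and 2 ligands were lower. Axin2, a scaffold of the beta-catenin destruction complex, had 13 UMIs or 2.08 CPM in Control and 104 UMIs or 14 CPM in NC-Foxc2-/- (ratio 6.72 [3.76, 13.0]). Znrf3 had 5.91 and 13.3 CPM (2.25 [1.53, 3.37]). Among ligands and their amplifiers, Wnt9a had 3.20 and 19.6 CPM (6.13 [3.83, 10.3]), Wnt5a had 51.0 and 109 CPM (2.15 [1.88, 2.45]) and Rspo3 had 18.1 and 36.5 CPM (2.02 [1.62, 2.54]). Wnt5a was found in a like share of TM-3 cells, 25.1% [22.2, 28.2] and 25.0% [22.6, 27.7], and Rspo3 in 8.80% [6.99, 10.9] and 10.9% [9.11, 12.8]. Wnt9a was found in 2.11% and 7.44% of the cells, Axin2 in 1.41% and 6.22%, and Znrf3 in 4.11% and 7.53%. In the opposite direction, Wnt5b had 23.2 and 9.13 CPM (0.394 [0.291, 0.529]) and Wnt6 had 23.0 and 8.72 CPM (0.379 [0.278, 0.512]). These 5 higher and 2 lower genes were out of 25 with enough UMIs, where 3.64% of all genes tested in TM-3 were higher and 2.29% lower. The median log2 ratio was 0.26 over the 25 and 0.06 over all genes tested. Wnt5a and Rspo3 were within 2-fold when TM-3 was rebuilt from the counts (1.44 and 1.28), and Wnt5b and Wnt6 when each cell was thinned to 1000 UMIs (0.690 for each), where Axin2 had a ratio of 2.61. Wnt9a had a ratio of 3.54 as the mean over cells of its share, and Znrf3 was at 1.91 in the rebuilt cluster.

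TM-3 was not made of the same cells in the libraries. Its cells lay mainly in the rebuilt clusters 5 and 14, and cluster 14 held 118 of the Control cells (13.8%) and 413 of the NC-Foxc2-/- cells (36.2%). Each cluster was therefore also taken alone, after the values above were seen. The clusters were made from both libraries together, with 8 genes of the set among the variable genes. With the set's genes left out, the cluster with like leading genes held 142 Control and 644 NC-Foxc2-/- cells, in place of 129 and 486. Taking a cluster alone thus does not hold the mix of cells fixed. Axin2 differed to a like degree in both, with 1.52 and 8.93 CPM in cluster 5 (5.86 [2.71, 14.5]) and 5.08 and 28.7 CPM in cluster 14 (5.65 [1.84, 28.2]). Wnt9a had 0.953 and 7.15 CPM in cluster 5 (7.50 [2.90, 24.7]) and 20.3 and 49.2 CPM in cluster 14 (2.42 [1.33, 4.84]). Other differences sat mostly in cluster 14. Rspo3 had 16.8 and 23.7 CPM in cluster 5 (1.41 [1.05, 1.89]) and 3.39 and 60.4 CPM in cluster 14, the latter from 2 and 124 UMIs (17.8 [4.83, 149]). Wnt5a had a ratio of 1.5 [1.25, 1.81] in cluster 5 and of 2.35 [1.76, 3.19] in cluster 14. Notum, a secreted enzyme that strips the lipid from Wnt proteins, was within 2-fold in the whole of TM-3 (7.19 and 8.46 CPM), but in cluster 14 it had 1 UMI in Control and 37 in NC-Foxc2-/-, and in cluster 5 it had 43 and 25. Znrf3 in cluster 14 had no UMI in Control and 32 in NC-Foxc2-/-. Wnt5b and Wnt6 were lower in cluster 5, with ratios of 0.441 [0.312, 0.614] and 0.411 [0.280, 0.591], and had too few UMIs in cluster 14 to be read. The keratocyte gene Kera was also higher in TM-3 of NC-Foxc2-/- (29.9 and 102 CPM), and its part in these ratios was not tested.

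**Figure D3:**
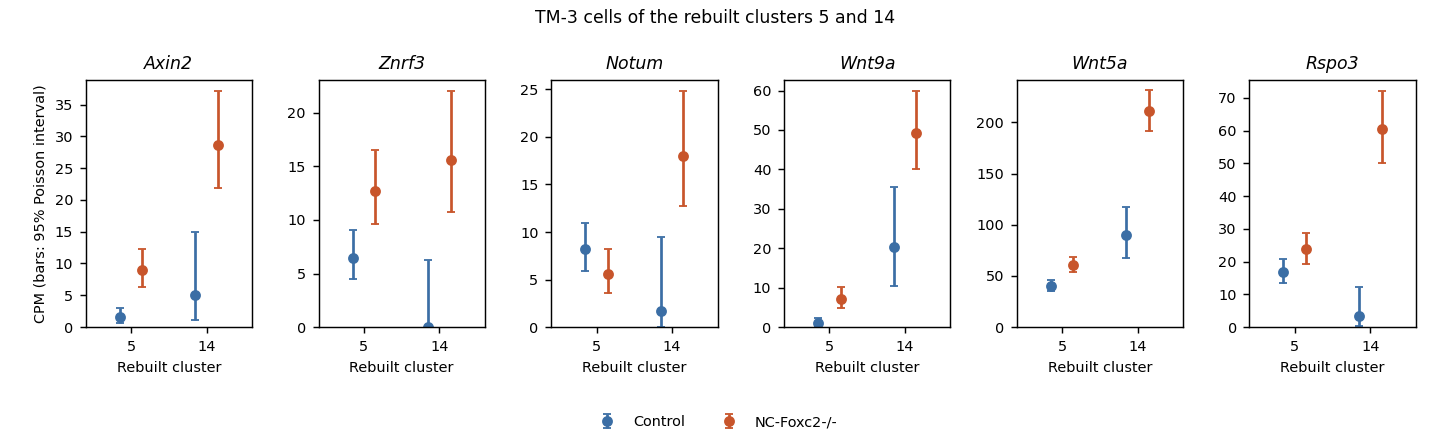
CPM of 6 genes in the TM-3 cells of the rebuilt clusters 5 and 14 (x axis), in Control (blue) and NC-Foxc2-/- (orange), with 95% Poisson intervals as bars. Axin2 is higher in NC-Foxc2-/- in both clusters, and Rspo3 mainly in cluster 14, where it goes from 3.39 to 60.4 CPM. Notum is higher in cluster 14 and lower in cluster 5 (8.19 and 5.58 CPM, 0.681 [0.399, 1.14]).

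In uveal meshwork 2 feedback genes, 1 co-receptor and 1 Frizzled receptor were higher, and 1 ligand and 1 secretion gene were lower. Axin2 had 8.26 CPM in Control against 17.1 CPM in NC-Foxc2-/- (2.07 [1.39, 3.08]), Znrf3 had 5.56 and 14.5 CPM (2.6 [1.64, 4.17]), Lrp5 had 9.95 and 26.3 CPM (2.65 [1.89, 3.74]) and Fzd7 had 23.6 and 47.8 CPM (2.02 [1.61, 2.55]). Notum went the other way, at 7.08 and 1.45 CPM from 42 and 5 UMIs, which is under the 50 UMIs asked for a call. Porcn, which lies on the X chromosome, had 13.0 and 6.37 CPM (0.491 [0.291, 0.797]). Wnt10a was the other lower gene, described next. These 4 higher and 2 lower genes were out of 24, where 2.06% of all genes tested in uveal meshwork were higher and 1.49% lower. Axin2, Fzd7 and Porcn lay so near the limits that other scalings took them inside (1.84, 1.94 and 0.505), and thinned cells gave 3.46 for Axin2 and 0.173 for Porcn.

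Wnt10a in uveal meshwork had 290 UMIs or 48.9 CPM in Control and 29 UMIs or 8.40 CPM in NC-Foxc2-/- (0.172 [0.113, 0.252]). In TM-1 it had 17.6 and 2.80 CPM (0.160 [0.0662, 0.334]). The TM-1 UMIs of Wnt10a came from 12 of 609 Control cells (1.97% [1.02, 3.42]) and 5 of 499 NC-Foxc2-/- cells (1.00% [0.326, 2.32]). These shares of cells overlap within their intervals. Over the 7 classes with at least 20 UMIs the ratio of Wnt10a was under 1 in all 7. Across the alternatives the ratio went up to 0.266 in uveal meshwork and ranged from 0.0793 to 0.349 in TM-1. Wnt10a is highest in epithelia, and epithelial genes are given beside it. The part of epithelial RNA in the Wnt10a ratios was not tested. Krt12, the keratin of the corneal epithelium, was present in Control uveal meshwork at 47.4 CPM, or 0.265% of its corneal epithelial-like level. In NC-Foxc2-/- it was at 13.6 CPM, so it was lower too (0.287 [0.206, 0.392]). Wnt7b stood there at 0.678% of its corneal epithelial-like level in Control and 3.62% in NC-Foxc2-/-, at under 1 CPM in both. Wnt10a stood at 60.2% of its own corneal epithelial-like level in Control and 15.5% in NC-Foxc2-/-. In the 144 Control uveal cells that lay in the rebuilt cluster 1 it reached 192 CPM, and in the 83 NC-Foxc2-/- cells of that cluster 25.0 CPM (0.130 [0.0637, 0.238]), while in cluster 4 it had 23.7 and 6.55 CPM (0.276 [0.158, 0.456]). Wnt4 in uveal meshwork had 149.9 and 75.6 CPM, just outside the rule of size at 0.504 [0.438, 0.579], and Wnt6 had 125 and 91.5 CPM (0.732 [0.640, 0.837]).

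Wnt6 and Wnt10a are neighbours on the same strand, at chr1:74771892-74785322 and chr1:74791516-74804179 of GRCm38, with 6193 bases between them. Both were lower in NC-Foxc2-/- by the rule of size in TM-1 and in conjunctival epithelial-like cells, Wnt10a in TM-1 from the few cells given above. Wnt6 had 22.7 and 9.46 CPM in TM-1 (0.417 [0.260, 0.650]), and 0.560 by the mean share over cells. In conjunctival epithelial-like cells Wnt6 had 61 UMIs in Control and 0 in NC-Foxc2-/-, where the total allows a ratio of up to 1.05 at 3 counts, and Wnt10a had 220 and 2 UMIs. In Schwann cell-like cells Wnt6 and Wnt10a were both within 2-fold, with ratios of 0.633 [0.439, 0.910] and 0.637 [0.341, 1.18]. Wnt6 was also lower in corneal epithelial-like cells, at 15.7 and 5.56 CPM (0.354 [0.242, 0.502]), where Wnt10a had a ratio of 0.666 [0.591, 0.748]. Other neighbours in the set are Wnt3a with Wnt9a, Wnt9b with Wnt3, and Wnt10b with Wnt1, of which Wnt9b, Wnt3 and Wnt1 were all but undetected.

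In the trabecular beam clusters Fzd7 stood out. It had 23.5 CPM in Control against 75.0 CPM in NC-Foxc2-/- in TM-1 (3.19 [2.48, 4.15]), and 11.4 and 37.0 CPM in TM-2 (3.25 [1.65, 6.99]). The ratio was above 1 in 11 of 13 classes with at least 20 UMIs. With thinned cells the TM-2 ratio was 5.15, from 2 of 189 Control and 12 of 257 NC-Foxc2-/- cells with a UMI. Among the other receptors of the beam, Fzd8 had 47.8 and 32.3 CPM in TM-1 (0.675 [0.519, 0.873]) and 38.2 and 19.8 CPM in TM-2 (0.517 [0.293, 0.894]), and Fzd4 had 47.5 and 88.5 CPM in TM-2 (1.86 [1.30, 2.70]). Wnt5a was lower in both, within 2-fold, with ratios of 0.619 [0.55, 0.695] in TM-1 and 0.693 [0.551, 0.869] in TM-2, against 2.15 in TM-3. In TM-1, 1 gene was higher and 2 were lower of 23, where 2.24% of all genes tested were higher and 1.70% lower. In TM-2, Fzd7 was the only call among 12, where 2.77% were higher and 1.88% lower.

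Fibroblasts gave the most calls towards lower levels. Wnt2 had 683 UMIs in Control and 352 in NC-Foxc2-/-, or 206 and 59.0 CPM (0.287 [0.252, 0.327]). Rspo1 had 63.5 and 9.39 CPM (0.148 [0.108, 0.199]), Wnt16 had 17.5 and 5.03 CPM (0.288 [0.179, 0.455]) and Fzd2 had 75.9 and 37.0 CPM (0.488 [0.406, 0.587]). Of the 6 genes with fibroblasts as their highest class in both libraries, Wnt2, Wnt16 and Rspo1 were thus lower, and Wnt10b (18.7 and 10.9 CPM, 0.584), Wnt9a (18.1 and 23.1 CPM, 1.28) and Wnt2b (6.62 and 7.04 CPM, 1.06) lay within 2-fold. An R-spondin receptor, a co-receptor and a Frizzled receptor were higher in the same cells. Lgr5, an R-spondin receptor and stem cell marker of other epithelia, had 4 UMIs in Control and 53 in NC-Foxc2-/- (1.2 and 8.88 CPM, 7.38 [2.72, 28.1]). Lrp5 had 6.32 and 17.9 CPM (2.84 [1.77, 4.77]), Fzd6 had 12.9 and 26 CPM (2.01 [1.42, 2.88]), and Lrp6 had 90 and 177 CPM, just inside the limit at 1.96 [1.73, 2.24]. These 3 higher and 4 lower genes were out of 26, where 4.84% of all genes tested in fibroblasts were higher and 6.09% lower. The class held 433 and 962 cells, and the summed level of its 5 markers was 10605 CPM in Control against 6844 CPM in NC-Foxc2-/-. The uveal meshwork genes Lypd1 (65.9 and 6.37 CPM) and Col23a1 (177 and 31.3 CPM) were lower there and the keratocyte gene Kera (44.6 and 108 CPM) was higher. The part of all these in the ratios was not tested. Fzd6 lay just under 2-fold in several alternatives (down to 1.93), and Rspo1 had a ratio of 0.0533 with thinned cells. Of the fibroblasts, 95.6% in Control and 89.4% in NC-Foxc2-/- lay in the rebuilt cluster 6, and within it Wnt2 (0.297 [0.260, 0.338]), Rspo1 (0.149 [0.108, 0.203]) and Lgr5 (6.86 [2.51, 26.2]) had much the same ratios. Since these are largely the same cells, the ratios could hardly change, and this split does not bear on the mix of cells in the class.

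**Figure D4:**
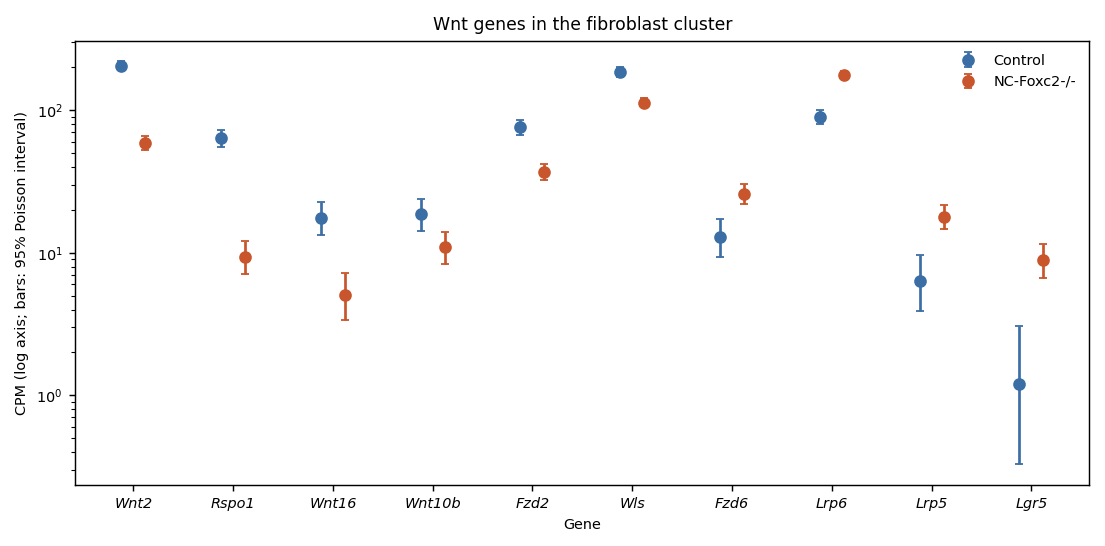
CPM (log axis) of 10 genes in fibroblasts of the Control (blue) and NC-Foxc2-/- (orange) libraries, with 95% Poisson intervals as bars. Wnt2, Rspo1, Wnt16 and Fzd2 are lower and Fzd6, Lrp5 and Lgr5 higher in NC-Foxc2-/- by at least 2-fold.

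Lrp5 was higher in NC-Foxc2-/- in every class in which it could be read. Its ratio was above 1 in all 15 classes with at least 20 UMIs, from 1.59 in limbal epithelial-like cells to 3.13 in keratocyte-like cells, with a median of 2.40. Keratocyte-like cells held 4.70 CPM in Control against 14.7 CPM in NC-Foxc2-/- (3.13 [2.58, 3.83]). It was called in uveal meshwork, fibroblasts and keratocyte-like cells, which descend from the neural crest at least in part. It was also called in corneal epithelial-like cells (3.85 and 9.22 CPM, 2.40 [1.68, 3.4]), conjunctival epithelial-like cells (2.59 [1.08, 5.42]) and the smooth muscle-like class (2.44 [1.54, 3.90]), and epithelium is not of neural crest origin. In SC and lymphatic ECs it had 30 UMIs in Control and 17 in NC-Foxc2-/-, under the 50 asked for, with a ratio of 2.57 [1.33, 4.80]. Fzd5 also lay above 1 in all 15 of its classes, from 1.03 to 3.95, with calls in corneal epithelial-like cells (8.21 and 26.1 CPM, 3.18 [2.55, 3.95]), conjunctival epithelial-like cells (15.2 and 59.9 CPM, 3.95 [2.69, 5.66]) and blood ECs (12.3 and 33.2 CPM, 2.69 [1.53, 4.96]). Of 9379 genes that could be read in at least 10 classes, 285 (3.04%) lay above 1 in every class. Lrp5 and Fzd5 were 2 of 21 such genes in this set. A difference that runs through all classes of a library cannot be told apart here from one between the libraries themselves. With each cell thinned to 1000 UMIs, Lrp5 was within 2-fold in keratocyte-like cells (1.14), fibroblasts (1.27) and smooth muscle-like cells (1.52), on few UMIs. For Lrp6 the ratio was above 1 in 12 of 17 classes.

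Wnt11, called in 4 classes, was above 1 in 15 of 16 classes. In its main sources it was higher within 2-fold, with 145 CPM in Control against 287 CPM in NC-Foxc2-/- in keratocyte-like cells (1.98 [1.91, 2.05]) and 165 and 223 CPM in TM-3 (1.35 [1.25, 1.46]). The calls lay in other classes, which were corneal epithelial-like (9.24 and 21.5 CPM, 2.32), limbal epithelial-like (27.5 and 66.3 CPM, 2.41), NK/T/B cell-like (24.3 and 66.4 CPM, 2.73) and photoreceptor-like cells (83.2 and 223 CPM, 2.68). The share of cells with Wnt11 was 8.33% and 8.12% in NK/T/B cell-like cells and 29.1% and 33.3% in limbal epithelial-like cells. It was 13.9% and 25.6% in corneal epithelial-like cells and 9.76% and 24.4% in photoreceptor-like cells. Wnt5a was also called in photoreceptor-like cells, at 65.7 CPM in Control against 200 CPM in NC-Foxc2-/- (3.04 [1.75, 5.67]). Kera, a keratocyte gene, was measured at 454 and 746 CPM in the NK/T/B cell-like class and at 1940.0 and 2639 CPM in photoreceptor-like cells, against 5004 and 3834 CPM in keratocyte-like cells. In limbal epithelial-like cells Kera stood at 523 and 385 CPM (0.736 [0.691, 0.784]). In corneal epithelial-like cells it stood at 3.71 and 9.22 CPM (2.49 [1.74, 3.54]). Keratocyte RNA was thus present in all 4 classes, least in the corneal epithelial-like one, and its part in these ratios was not tested. At a clustering resolution of 0.4 the photoreceptor-like ratios turned to 0.342 for Wnt11 and 0.683 for Wnt5a, and with thinned cells that of Wnt11 was 0.909 in corneal and 1.65 in limbal epithelial-like cells. Keratocyte-like cells themselves gave 2 higher genes, Lrp5 and Wnt9a (1.48 and 3.12 CPM, 2.11 [1.46, 3.10], up to 4.53 with thinned cells), and 0 lower of 23, where 2.31% of all genes tested were higher and 1.31% lower. Wnt5a there had 160.4 and 240.1 CPM (1.5 [1.44, 1.55]).

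**Figure D5:**
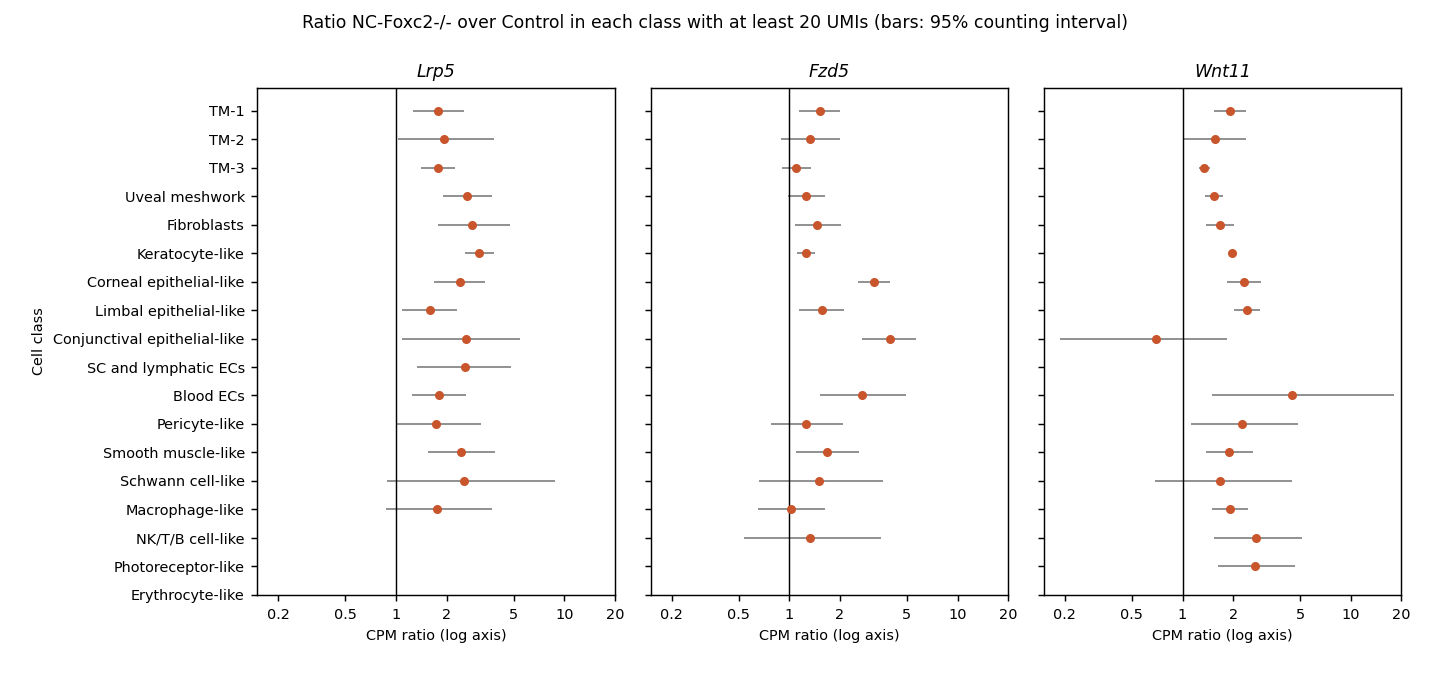
CPM ratio of NC-Foxc2-/- over Control (log axis, a line at 1) for Lrp5, Fzd5 and Wnt11 in each class with at least 20 UMIs, with 95% counting intervals as bars. Lrp5 and Fzd5 lie at or above 1 in all 15 classes shown for each, and Wnt11 in 15 of 16.

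In the endothelium the calls were few. Wnt5b in SC and lymphatic ECs had 99 UMIs or 118 CPM in Control and 8 UMIs or 43.0 CPM in NC-Foxc2-/- (0.366 [0.154, 0.749]), and it was the only call among 4 genes, where 4.44% of all genes tested were higher and 5.21% lower. That class held 84 and 23 cells. In blood ECs, Fzd5 and Fzd1 (11.6 and 23.4 CPM, 2.02 [1.09, 3.89]) were higher and none was lower of 8, where 3.94% of all genes tested were higher and 3.94% lower. Fzd1 was found in 9.76% [5.14, 16.4] and 9.13% [5.74, 13.6] of the cells, and Fzd5 in 11.4% [6.36, 18.4] and 17.8% [13.1, 23.4]. Without the 22 cells of the cluster found in NC-Foxc2-/- alone, Fzd5 had a ratio of 2.71 [1.53, 5.03] and Fzd1 of 2.14 [1.15, 4.14]. With thinned cells Fzd5 had a ratio of 5.52, from 1 of 123 Control and 10 of 223 NC-Foxc2-/- cells with a UMI. With the stricter mitochondrial filter Fzd1 was at 1.93. Fzd4 in blood ECs, at 169 and 144 CPM, had a ratio of 0.853 [0.707, 1.03], and Fzd6 of 1.79 [1.27, 2.55]. In NK/T/B cell-like cells Lef1 had 131 and 65.3 CPM (0.498 [0.354, 0.699], and up to 0.530 in the alternatives) and Tcf7 had 122 and 139 CPM (1.14 [0.855, 1.53]).

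Of the remaining calls, Axin2 was higher in limbal epithelial-like cells, at 3.30 and 8.25 CPM (2.50 [1.45, 4.28]), and at a ratio of 1.75 without called doublets, which were 32.9% and 24.4% of that class. Wnt4 was lower in macrophage-like cells, at 17.0 and 6.57 CPM (0.386 [0.199, 0.715]), a class that held Wnt4 at a small share of its epithelial level, and the ratio was 0.506 without called doublets and 0.794 with thinned cells. Wls was lower in conjunctival epithelial-like cells, from 447 UMIs in 447 Control cells to 7 UMIs in 25 NC-Foxc2-/- cells (0.335 [0.134, 0.696]), and at resolution 1.2 the ratio was 0.532. In that class 2 genes were higher and 3 lower of 16, where 5.58% of all genes tested were higher and 16.3% lower, so that low values were common there in general. Thinned cells gave ratios of 7.12 for Fzd5 and 5.93 for Lrp5 in it, on few cells. Fzd5 was then seen in 10 of 445 Control and 3 of 25 NC-Foxc2-/- cells, and Lrp5 in 3 and 1.

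In the classes left, the genes of the set were called as follows. Corneal epithelial-like cells had 3 higher and 1 lower of 20, where 1.97% of all genes tested were higher and 2.22% lower. Limbal epithelial-like cells had 2 higher and 0 lower of 23, against 1.17% and 6.75% of all genes. Smooth muscle-like cells had 1 higher and 0 lower of 21, against 1.61% and 1.94%. NK/T/B cell-like cells had 1 of each out of 6, against 4.29% and 3.79%, and macrophage-like cells 0 higher and 1 lower of 7, against 2.98% and 3.48%. In photoreceptor-like cells both genes that could be read were higher, against 6.96% higher and 8.56% lower of all genes. No gene of the set was called among 9 in pericyte-like cells (5.94% and 3.72% of all genes) or among 7 in Schwann cell-like cells (2.20% and 1.67%), and none could be read in erythrocyte-like cells (11.7% and 2.03%). Wnt1, whose regulatory sequence drives the Cre, had 10 UMIs in Control and 28 in NC-Foxc2-/-, of which 2 and 10 were in pericyte-like cells.

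The promoters of 30 of the 46 genes were matched by symbol in RefSeq (GRCm38.p6), as windows that run from 250 before a start to 50 after it. Genes with several starts have several windows, 38 in all. They were searched on both strands for CTTTG, the core of the TCF/LEF motif, for its longer forms CTTTGAA and CTTTGAT, which contain it, and for TAAACA, a core of the forkhead motif. CTTTG was in 42.1% of the 38 windows and in 53.9% of all 32851 promoter windows of this length. The longer forms were in 5.26% against 8.65%, and TAAACA was in 7.89% against 13.4%. The longer forms occurred in 1 window each of Wnt11 and Wnt5b, and the other windows of these genes had none. The Wnt5b window lies at a start within the gene, not at its outermost start. Wnt11 was above 1 in nearly all classes and Wnt5b was lower in TM-3. The part of the motif in these ratios was not tested. Both windows are shown with those of Fzd7 and Axin2, genes that were higher in the meshwork. Capitals mark CTTTG or its reverse complement, with the 2 further bases of the longer form, and the Axin2 window has none. The windows lie at chr7:98834862-98835161 (plus strand) for Wnt11, chr6:119449337-119449636 (minus strand) for Wnt5b, chr1:59481897-59482196 (plus strand) for Fzd7 and chr11:108920099-108920398 (plus strand) for Axin2.
Wnt11: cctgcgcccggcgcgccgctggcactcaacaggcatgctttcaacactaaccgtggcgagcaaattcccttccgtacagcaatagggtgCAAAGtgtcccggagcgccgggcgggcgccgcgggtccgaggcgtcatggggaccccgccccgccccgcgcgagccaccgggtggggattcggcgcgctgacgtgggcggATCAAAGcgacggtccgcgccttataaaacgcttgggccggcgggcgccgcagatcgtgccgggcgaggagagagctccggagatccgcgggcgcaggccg
Wnt5b: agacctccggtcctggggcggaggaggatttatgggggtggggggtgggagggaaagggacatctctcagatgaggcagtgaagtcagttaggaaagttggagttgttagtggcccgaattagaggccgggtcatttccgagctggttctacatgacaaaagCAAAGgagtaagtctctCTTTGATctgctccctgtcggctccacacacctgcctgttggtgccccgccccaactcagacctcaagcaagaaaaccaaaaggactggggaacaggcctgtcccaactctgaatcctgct
Fzd7: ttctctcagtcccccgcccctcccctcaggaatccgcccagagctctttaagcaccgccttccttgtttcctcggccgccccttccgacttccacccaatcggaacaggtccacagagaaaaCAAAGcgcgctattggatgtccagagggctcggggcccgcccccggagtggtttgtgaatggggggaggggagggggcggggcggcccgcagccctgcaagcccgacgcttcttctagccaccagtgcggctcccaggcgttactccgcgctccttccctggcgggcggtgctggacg
Axin2: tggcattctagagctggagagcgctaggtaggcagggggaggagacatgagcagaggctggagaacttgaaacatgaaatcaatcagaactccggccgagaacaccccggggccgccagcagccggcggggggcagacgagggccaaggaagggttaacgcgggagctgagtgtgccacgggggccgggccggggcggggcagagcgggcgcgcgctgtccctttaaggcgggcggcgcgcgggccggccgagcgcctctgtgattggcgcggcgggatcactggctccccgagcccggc

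The pathway genes outside the set were counted by list. Of the 16 antagonists, which are secreted apart from the membrane proteins Kremen1, Kremen2 and Apcdd1, 87 gene and class pairs had enough UMIs, and 14.9% were higher and 11.5% lower, against 3.19% and 4.06% of all pairs. In the meshwork, Sfrp4 in TM-3 had 8 UMIs in Control and 1018 in NC-Foxc2-/-, and Dkk1, which blocks Lrp5 and Lrp6, had 40.1 and 5.77 CPM in TM-3 (0.144 [0.102, 0.199]). In fibroblasts Wif1 had 0.602 and 43.7 CPM from 2 and 261 UMIs, and Dkk2 had 294 and 89.5 CPM (0.305 [0.274, 0.339]). Sfrp4 and Wif1 were both among the leading genes of the rebuilt cluster 14. That cluster made up 1.85% of fibroblasts in Control against 7.07% in NC-Foxc2-/-, and 13.8% against 36.2% of TM-3. How far this shift in cell mix accounts for the Sfrp4 and Wif1 values was not tested. The list of Norrin and Frizzled-4 co-receptors gave 7 higher and 0 lower pairs of 29, of which 5 were Reck, a membrane protein that works with Wnt7 ligands, and 2 were Adgra2, its partner. Reck had 29.9 and 68.2 CPM in TM-3 (2.28 [1.93, 2.71]) and 30.7 and 70.4 CPM in uveal meshwork (2.29 [1.88, 2.79]). Tspan12, which assists Frizzled-4, had 134 and 91.0 CPM in blood ECs (0.681 [0.543, 0.854]). The 17 genes of beta-catenin transduction gave few calls, with 4 higher and 4 lower pairs of 214. The 13 genes of beta-catenin independent signalling and planar polarity gave 1 higher and 5 lower pairs of 101. Of 7 other target genes, 3 pairs were higher and 4 lower of 68, and 3 of the lower pairs lay in fibroblasts, where Nkd1, an inducible antagonist of the pathway, had 88.2 and 24.3 CPM (0.276 [0.224, 0.337]) and Ccnd1, a cyclin, had 82.2 and 28.2 CPM (0.343 [0.281, 0.417]). Myc, a growth regulator, was higher in them, at 96.0 and 203 CPM (2.11 [1.87, 2.40]). Axin2 in fibroblasts had 16.3 and 11.4 CPM (0.701 [0.483, 1.02]). The 6 glypicans and surface carriers gave 2 higher and 1 lower pair of 49.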

How the data were processed

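Droplet-based single-cell RNA sequencing measured 1 pooled library of Control and 1 of NC-Foxc2-/- anterior eye segments. The authors deposited UMI counts per gene and barcode, made with Cell Ranger 4.0.0 on mm10 per the submitters' processing notes, with an annotation release that the sources used here do not name. The deposited counts carry no normalization. Barcodes above 8% mitochondrial UMIs were left out.

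The study's names for meshwork, fibroblast and endothelial cells were joined from its violin-plot source values by matching normalized values within 0.55 of the last digit, with 98.5% or more of each cluster joined. This tolerance was set after a planned 0.5 had joined 74.2% to 84.7% of the meshwork and fibroblast cells. All other classes came from scanpy 1.11.5 (2336 variable genes, 8 of them of the set described, 15 components, 25 neighbors, Leiden resolution 0.8, seed 1). Doublets were called with Scrublet and kept (3.98% and 4.66% of cells). A further 7.61% and 13.5% of cells had no class.

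Counts were summed per class and library, from 185889 to 38416645 UMIs in the classes compared, and expressed as CPM of the class total, with exact Poisson 95% intervals. For ratios, Clopper-Pearson bounds of the conditional binomial share were used. A sum of 0 was bounded at 3 counts. The calculation was tested on simulated counts. No p-value is given, since cells are not replicates. The genes, the lists, the rules and the tests were chosen with earlier results of these data known. Values are given for each gene with at least 20 CPM in a class in both libraries and for each pair past the 2-fold rule. Other genes of the pathway are given by list, with at most the 2 highest and 2 lowest named among those with at least 100 UMIs in the class. The alternatives tried were rebuilt clusters, other filters, scalings, thinning, resolutions and UMI minimums. Positions are from GENCODE M21 (GRCm38) and promoters from RefSeq (GRCm38.p6).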

Additional observations from a re-analysis of the deposited data

How the results depend on the processing

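The numbers of higher and lower pairs, 29 and 17, stayed within 1.5 times those counts when the clusters were rebuilt, doublets left out, the mitochondrial filter tightened, the scaling or the resolution changed, the set's own genes left out of the clustering, or the study's names joined at a tolerance of 0.5, the last 2 added after the data were seen, as were the splits by rebuilt cluster and of blood ECs. The pairs themselves changed more. Of the 29 and 17 pairs, 21 and 16 were also called with rebuilt clusters. The shared pairs were 22 and 15 at resolution 0.4, and 22 and 14 by the mean share over cells. In the other settings just named, 25 to 29 of the higher and 15 to 17 of the lower pairs were shared. With each cell thinned to 1000 UMIs the counts were 5 and 5, of which 1 and 2 were among the 29 and 17. Only 60 pairs then reach 50 UMIs, 4 of them called before thinning, and 3 of these 4 stayed past 2-fold, while the other thinned calls were pairs within 2-fold before. The thinned ratios of all other called pairs rest on fewer than 50 UMIs. In thinned cells 11 genes instead of 25 had the same highest class in both libraries. With a minimum of 20 UMIs there were 28 lower pairs, and with 1 UMI in each library 79 higher and 54 lower. Where the whole interval had to lie beyond 2-fold, 8 higher and 5 lower pairs were left. For these minimums and this interval rule the shares over all genes are not given. The counts therefore cannot be set against the 3.19% and 4.06% of the main rule. At a minimum of 50 CPM, 15 genes were detected in place of 24. Of 434 recomputed ratios, 398 stayed within the counting interval, 33 lay outside it on the same side of 1, and 3 turned: Wnt11 in corneal epithelial-like cells (0.909, thinned) and, at resolution 0.4, Wnt5a and Wnt11 in photoreceptor-like cells (0.683 and 0.342). The cause was not tested. No paired analysis was possible because each group has 1 library, and no library could be left out. The study's TM-1 and TM-2 share 1 rebuilt cluster. Depth limits the low genes, and the conjunctival epithelial-like and SC and lymphatic EC classes hold 25 and 23 NC-Foxc2-/- cells.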
